A study of Mus musculus with 6 samples.

Results

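The genes described here encode the subunits of the nuclear and mitochondrial RNA polymerases and the general transcription factors that place them on promoters. They were taken by name: every protein-coding gene of GENCODE M21 whose symbol starts with Polr1, Polr2 or Polr3 and a letter, Polrmt, Gtf2, Gtf3, or Taf and a digit, which gave 75 of the 48440 genes in the count table. RNA was sequenced from primary CD4+ T cells, helper lymphocytes isolated from spleen and lymph node of wildtype mice. All cells had first been activated for 3 days by plate-bound anti-CD3 and anti-CD28, antibodies that trigger the T cell receptor and its costimulatory receptor, and then grown for 5 days in IL2. The unstimulated group was left at rest after that, and the stimulated group met both antibodies again for 4 hours before RNA extraction, with 3 libraries in each group. The resting cells are thus previously activated, expanded cells and not naive ones. The labels give no strain, age or sex. The replicates are called biological, with no word on whether each came from its own mouse or culture, so p-values measure the spread between these libraries only.

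Eukaryotic cells divide transcription between RNA polymerase I (Pol I), which makes the large ribosomal RNA precursor, Pol II, which makes messenger RNA, and Pol III, which makes transfer RNA and other short RNAs. The enzymes are built from homologous large subunits, from a set of small subunits common to all of them, and from subunits of their own. Each needs its own initiation factors: SL1 for Pol I, the TFII factors with TFIID for Pol II, and TFIIIA, TFIIIB and TFIIIC for Pol III. T cells that are activated grow before they divide, and the ribosomal RNA and transfer RNA for that growth are made by Pol I and Pol III.

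Total counts ran from 29897720 to 30252923 per library. The 7 T cell markers checked were read in every library, with a sum of 3784 to 3955 CPM at rest and 1739 to 1798 CPM after stimulation, and all of them fell, Cd4 from 984 ± 40.2 to 333 ± 16.7 CPM. The 6 B cell markers summed to 1402 to 2858 CPM at rest and 729 to 1280.4 CPM after stimulation, most of it Ighm, and 5 of them fell and Pax5 was not called. Of the 5 myeloid markers (sum 5.06 to 7 CPM at rest and 1.58 to 2.66 CPM after stimulation) 2 fell and 1 was not called, and Csf1r and Cd14 were too low to be tested. The 4 erythroid markers summed to 0.573 to 1.67 CPM at rest and 0.213 to 0.6202 CPM after stimulation, where Hba-a1 fell and the other members were at or near 0. In the natural killer list (2.48 to 20.3 CPM at rest and 58.7 to 113 CPM after stimulation) Eomes rose and made up most of the sum, Klrk1 was not called, and Ncr1 and Klrb1c were too low to be tested. Cytotoxic T cell markers summed to 20.9 to 24.8 CPM at rest and 20.7 to 25.8 CPM after stimulation, with Cd8a up and Cd8b1 down. The part of these cells in the changes below was not tested.

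Promoters of 4 members are shown. Polr1b had the largest rise of the members, Polr3g and Polr3gl are alternative subunits at one position of Pol III that moved in opposite directions, and Polr3e is a Pol III subunit that rose and, like Polr3gl, holds an E-box. Each sequence is from RefSeq (GRCm38.p6), runs from 250 bases before to 50 bases after the annotated start, and is written 5′ to 3′. Capitals mark CACGTG (E-box), GGGCGG or its reverse complement (GC-box) and TATAAA or its reverse complement.
Polr1b (chr2:129100746-129101045, forward strand): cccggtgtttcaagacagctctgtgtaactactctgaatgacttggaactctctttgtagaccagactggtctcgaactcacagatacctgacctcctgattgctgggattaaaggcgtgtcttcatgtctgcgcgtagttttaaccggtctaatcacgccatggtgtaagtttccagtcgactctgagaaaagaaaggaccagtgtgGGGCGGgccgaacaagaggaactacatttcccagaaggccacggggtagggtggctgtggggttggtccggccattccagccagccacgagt
Polr3g (chr13:81710964-81711263, reverse strand): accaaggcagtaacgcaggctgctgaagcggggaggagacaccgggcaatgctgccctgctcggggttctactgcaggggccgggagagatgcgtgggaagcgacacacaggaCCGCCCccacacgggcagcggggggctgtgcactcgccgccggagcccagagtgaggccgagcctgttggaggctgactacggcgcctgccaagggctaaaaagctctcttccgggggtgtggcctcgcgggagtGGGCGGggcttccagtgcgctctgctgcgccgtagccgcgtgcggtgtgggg
Polr3gl (chr3:96594132-96594431, reverse strand): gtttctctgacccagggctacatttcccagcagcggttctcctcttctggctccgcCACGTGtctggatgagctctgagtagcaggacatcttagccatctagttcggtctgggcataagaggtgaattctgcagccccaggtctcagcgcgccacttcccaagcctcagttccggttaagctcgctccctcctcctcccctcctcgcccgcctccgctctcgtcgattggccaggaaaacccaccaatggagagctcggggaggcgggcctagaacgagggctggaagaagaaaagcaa
Polr3e (chr7:120917528-120917827, forward strand): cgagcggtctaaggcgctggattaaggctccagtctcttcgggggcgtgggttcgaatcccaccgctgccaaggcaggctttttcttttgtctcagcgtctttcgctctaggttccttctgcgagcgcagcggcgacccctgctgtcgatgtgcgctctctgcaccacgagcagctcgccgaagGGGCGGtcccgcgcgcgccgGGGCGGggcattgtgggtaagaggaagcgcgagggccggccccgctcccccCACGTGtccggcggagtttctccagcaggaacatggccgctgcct

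The E-box is the sequence bound by MYC with its partner MAX and by other factors of that fold. RefSeq promoters were found by symbol for 65 of the 75 members, and 16 of these (24.6%) held CACGTG, against 11.9% of 9663 tested genes and 8.09% of all 27025 genes in that table. It stood in 9 of 44 members that rose (20.5%) and in 6 of 19 tested members that fell or were not called (31.6%). Among members that rose more than 2-fold it stood in 3 of 23 (13%), a share close to that of all tested genes. Of the promoters printed, Polr3gl, which fell, holds an E-box 194 bases before the start. Polr3e, which rose, holds one that begins at base 6 after it. Polr3e was printed for its rise and its E-box, so this contrast cannot show whether the E-box goes with direction. Polr1b and Polr3g hold GC-boxes and no E-box in this window. GGGCGG, the core of the site for SP1-type factors, stood in 44 of 65 members (67.7%) and in 68.6% of tested genes, and TATAAA in 11 of 65 (16.9%) and 8.27%. TATAAA stood in 1 of the 23 members that rose more than 2-fold (4.35%). All motifs were searched on both strands and counted separately where they overlapped, and a gene with several annotated starts counted once. A match is a description of letters, not of binding.

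Most members rose after restimulation. Of the 75, 73 passed the filter on low counts, 54 of these rose, 11 fell and 8 were not called (edgeR quasi-likelihood fit, Benjamini-Hochberg adjusted p under 0.05 over all 13314 tested genes). Calls in either direction thus took in 65 of 73, against 77.5% of all tested genes. Of the members 74.0% rose and 15.1% fell, where 38.4% of all tested genes rose and 39.1% fell. These shares of all tested genes are the background for every count by class or list below. The median log2 fold change of the tested members was 0.68, with the middle 50% of them between 0.18 and 1.39, and that of all tested genes was -0.04, with its middle 50% between -0.96 and 0.83. Among the 73 tested members, 28 were called with a rise of more than 2-fold and 3 with a fall of more than 2-fold. Of all tested genes, 21.6% rose and 23.8% fell by that much. The groups did not overlap for 67 of the 73 members, against 79.8% of all tested genes. The 6 that overlapped were Gtf2b, Gtf3a, Gtf3c1, Polr2i, Polr2m and, alone among the called members, Polr2a.

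Levels are read counts normalised to TMM-scaled library sizes (CPM), given as mean ± SD (n = 3 libraries per group). This scaling leaves the CPM totals of the libraries unequal, so a sum over genes is not a share of a common total. Over all tested genes the sum was 952787 ± 8937 CPM at rest and 1049690 ± 18487 CPM after stimulation, 1.10-fold. A log2 change is that of stimulated over unstimulated cells, with its SE and edgeR's adjusted p. Summed over the 75 genes the level went from 3339 ± 2.299 to 5331 ± 109 CPM. Fewer cells of a type and less RNA per cell cannot be told apart in such bulk samples. With library size alone as the scaling the median change of all genes was lower by 0.14 on the log2 scale. The members not tested were Taf7l, a germ cell TAF with 0 reads in all libraries (an upper limit of 3 counts, about 0.1 CPM), and Gtf2a1l, its counterpart for TFIIA in germ cells, with 3 reads in each of unstimulated replicates 2 and 3 and 0 elsewhere.

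**Figure D1:**
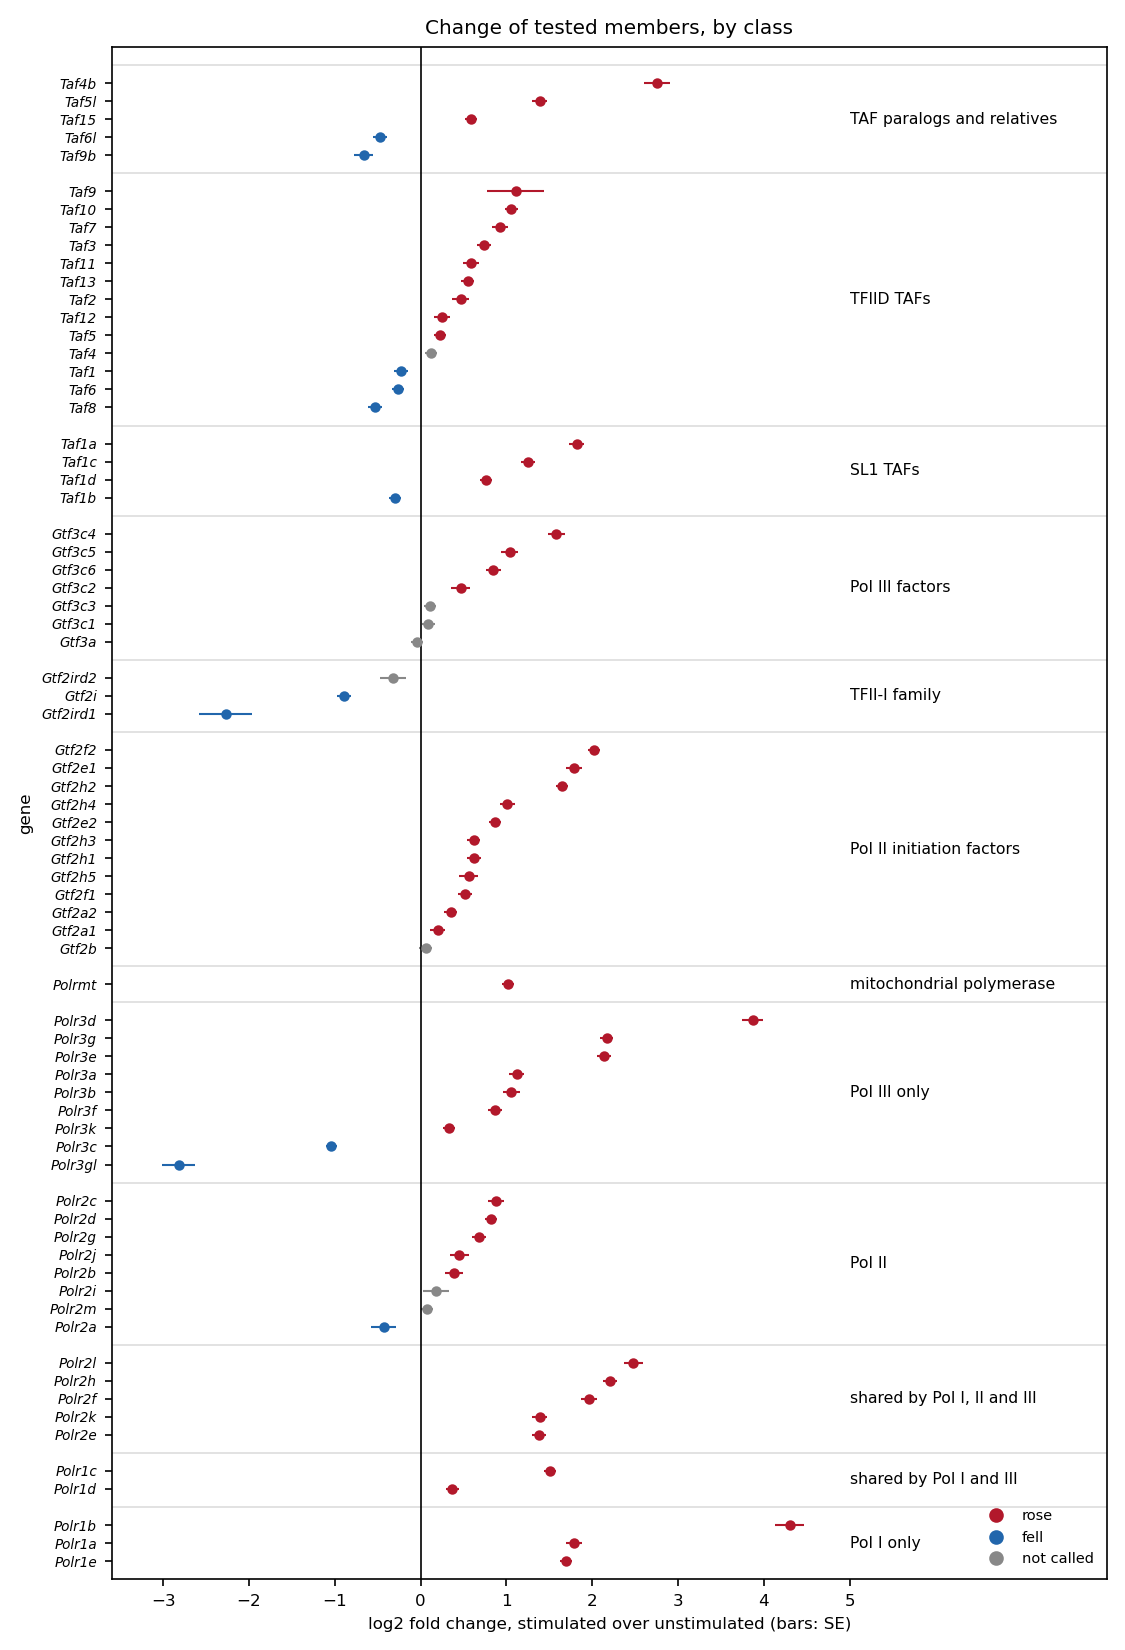
Log2 fold change of stimulated over unstimulated cells (x axis, bars give the SE) for 72 of the 73 tested members (y axis), grouped by class and coloured by edgeR call at an adjusted p of 0.05. Pol I and shared subunits all lie right of 0, Pol II subunits lie between -0.43 and 0.88, and the Pol III subunits span from -2.82 to 3.87.

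The subunits found only in Pol I all rose, and their summed level went from 119 ± 13.1 to 653 ± 37.8 CPM. Polr1b, the second-largest subunit that forms the catalytic centre with Polr1a (ENSMUSG00000027395, chromosome 2, 129100995 to 129126594, forward strand in GRCm38), stood at 19.6, 13.5 and 12.4 CPM in unstimulated replicates 1, 2 and 3 and at 307, 307 and 279.7 CPM in the stimulated ones. Every stimulated library was far above every resting one, a 19.6-fold rise (log2 change 4.3 ± 0.17 SE, adjusted p = 9.5e-08). By size of rise Polr1b was number 200 of the 13314 tested genes. Polr1a, the largest subunit (ENSMUSG00000049553, chromosome 6, 71909053 to 71984935, forward strand), had 93.2, 84.2 and 76.2 CPM at rest and 309, 299.5 and 268 CPM after stimulation (log2 change 1.79 ± 0.094 SE, adjusted p = 2e-07). Polr1e, which joins the enzyme's TFIIF-like arm, rose from 19.4 ± 0.901 to 63.3 ± 1.83 CPM (log2 change 1.7 ± 0.070 SE, adjusted p = 4.9e-08).

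Levels of different genes were compared per kilobase of exon. That length merges the exons of all annotated transcripts of a gene, expressed here or not, so such comparisons between genes are approximate. Polr1b was at 2.61 and 51.3 CPM per kb at rest and after stimulation and Polr1a at 7.12 and 24.6. On this scale Polr1b was the lower of the catalytic pair at rest and the higher after 4 hours. The remaining Pol I subunits carry other symbols in GENCODE M21 and are not members by the naming rule. Cd3eap, the partner of Polr1e, rose from 10.8 ± 1.78 to 108 ± 3.36 CPM (log2 change 3.33 ± 0.12 SE, adjusted p = 2e-08). Twistnb, of the stalk, rose from 28.9 ± 1.05 to 84.8 ± 7.15 CPM (log2 change 1.55 ± 0.081 SE, adjusted p = 2e-07). Znrd1, the RNA-cleavage subunit, was at 38.1 ± 1.26 and 36.04 ± 0.8396 CPM (log2 change -0.08 ± 0.067 SE, adjusted p = 0.306).

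**Figure D2:**
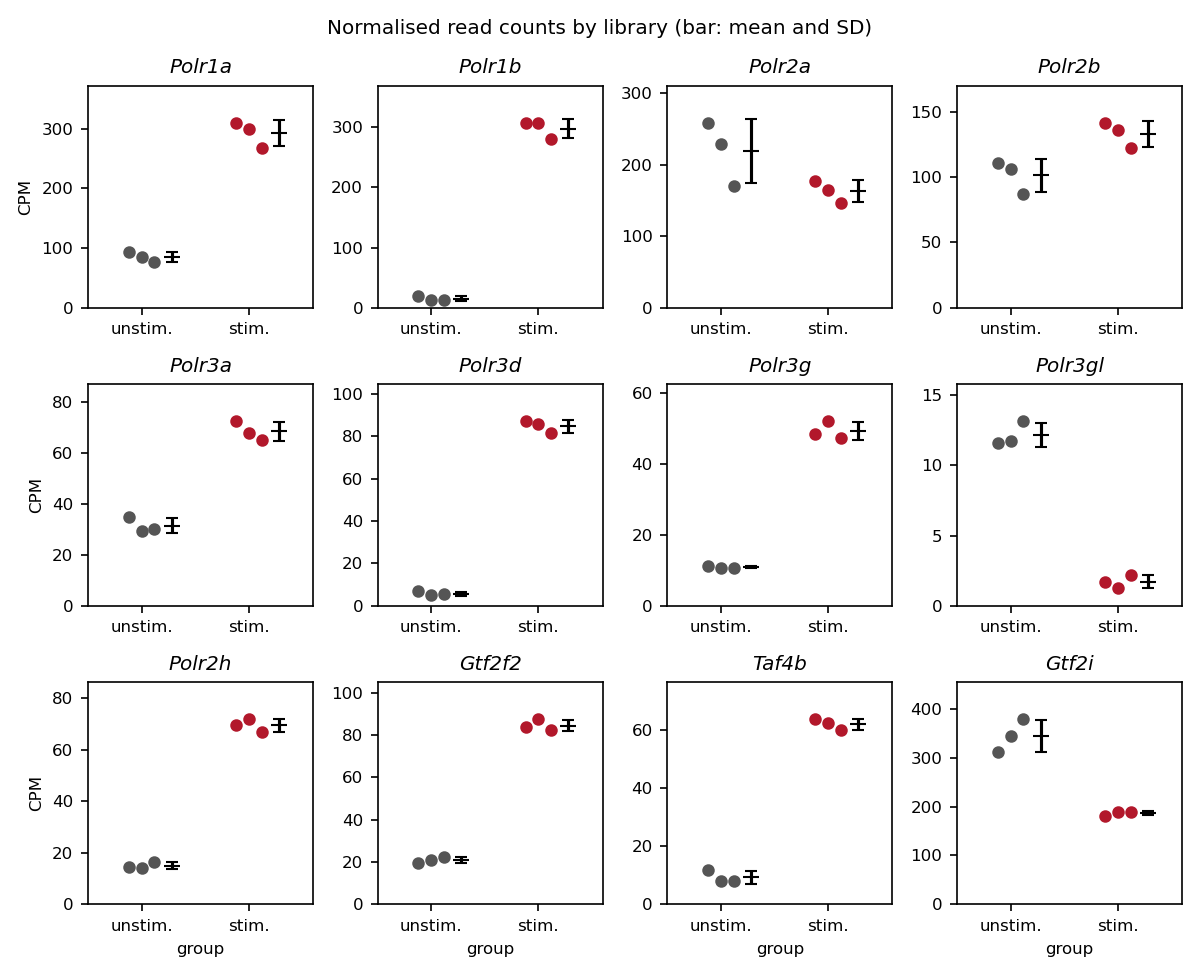
Normalised read counts in CPM (y axis, from 0) of 12 members in each of the 3 unstimulated (grey) and 3 stimulated (red) libraries, with the group mean and SD in black. The groups are apart for all but Polr2a, whose lowest resting library lies at 169.9 CPM, under the highest stimulated one.

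The subunits common to Pol I, II and III rose as well, 5 of 5 and each more than 2-fold, and their sum went from 119.5 ± 5.83 to 403 ± 24.5 CPM. Polr2l, one of the small subunits at the assembly platform, rose from 10.3, 9.92 and 12.2 CPM to 54.8, 60.9 and 65.3 CPM (log2 change 2.48 ± 0.11 SE, adjusted p = 6.3e-08). Polr2h had 14.5, 14.03 and 16.3 CPM at rest and 69.8, 71.9 and 66.8 CPM after stimulation (log2 change 2.21 ± 0.082 SE, adjusted p = 2.7e-08). In both genes the lowest stimulated library was several times the highest resting one. Polr2f, which sits near the clamp, rose 3.89-fold, Polr2k 2.63-fold and Polr2e 2.604-fold, the last from 58.3 ± 1.93 to 152 ± 11.99 CPM (adjusted p by edgeR between 2.7e-08 and 6e-07 over the 5 genes). At rest the 5 genes ranged from 6.54 CPM per kb (Polr2l) to 21.8 (Polr2e), and after stimulation from 33.2 (Polr2f) to 56.8 (Polr2e).

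Polr1c and Polr1d form the platform on which Pol I and Pol III are assembled. Polr1c rose from 38.9, 39.95 and 44.3 CPM to 119, 118 and 114 CPM (log2 change 1.51 ± 0.072 SE, adjusted p = 1.2e-07). Polr1d, already at 48.99 CPM per kb at rest and the highest of the Pol I and III subunits on that scale, rose from 149 ± 7.104 to 192 ± 13.9 CPM (log2 change 0.37 ± 0.076 SE, adjusted p = 0.00169). On that scale the partners were apart at rest and closer after stimulation, with Polr1c at 18.02 and 51.4 and Polr1d at 48.99 and 63.2 CPM per kb.

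Subunits of Pol II alone had small changes. Of the 8 genes in this class, 5 rose, 1 fell and 2 were not called, none by more than 2-fold. Their sum went from 652 ± 42.97 to 736 ± 30.5 CPM, 1.13-fold, close to the 1.10-fold of the sum over all tested genes. The class and its sum take in Polr2m, which is not a core subunit, at 167 ± 1.54 and 177 ± 12.6 CPM. Polr2a, the largest subunit, whose repeated tail is phosphorylated as the enzyme passes from initiation to elongation (ENSMUSG00000005198, chromosome 11, 69733997 to 69758637, reverse strand), had 259, 229 and 169.9 CPM at rest and 177, 165 and 146 CPM after stimulation. The groups overlapped, and the fall of 0.43 on the log2 scale (SE 0.15, edgeR adjusted p = 0.028) had a call that single libraries ended. Without unstimulated replicate 1 the fall was smaller (change -0.29, adjusted p = 0.0763). It was about as large, though not called, without unstimulated replicate 2 (change -0.40, adjusted p = 0.0761), without stimulated replicate 2 (change -0.43, adjusted p = 0.0643), without both libraries of replicate 2 (change -0.41, adjusted p = 0.141) and with no filter (change -0.43, adjusted p = 0.0857). Without stimulated replicate 3 it was not called either (change -0.35, adjusted p = 0.1, across alternatives 0.0002 to 0.141).

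Polr2b, the second-largest subunit, rose from 111, 106 and 87.02 CPM to 141, 136 and 122 CPM (log2 change 0.39 ± 0.10 SE, adjusted p = 0.00636). Polr2j, of the assembly platform, rose from 39.2 ± 6.11 to 53.5 ± 3.67 CPM (log2 change 0.45 ± 0.11 SE, adjusted p = 0.00526). Both calls were lost without the libraries of replicate 2 (adjusted p = 0.0533, across alternatives 7.2e-05 to 0.0533, and adjusted p = 0.075, across alternatives 8.8e-05 to 0.075). Of the Polr2j exon bases 15.9% overlap Lrwd1 on the other strand, a gene with a higher mean count. The partner of Polr2j, Polr2c, rose from 45.4 ± 5.72 to 83.3 ± 4.89 CPM (log2 change 0.88 ± 0.097 SE, adjusted p = 3.1e-05). Polr2d and Polr2g, which make up the stalk, rose by 0.82 (SE 0.071) and 0.68 (SE 0.081), Polr2d from 23.1 ± 0.182 to 40.96 ± 1.87 CPM. Polr2i, a subunit with a role in accuracy, was at 11.9 ± 2.15 and 13.5 ± 1.88 CPM (log2 change 0.18 ± 0.15 SE, adjusted p = 0.319), and 26.8% of its exon bases overlap Tbcb on the other strand. Polr2m, a Pol II-associated inhibitor rather than a core subunit, changed by 0.08 (SE 0.071, edgeR adjusted p = 0.319), and the sign turned with library size alone (-0.06). Of all polymerase genes Polr2m had the highest level per length, 68.9 and 72.8 CPM per kb.

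**Figure D3:**
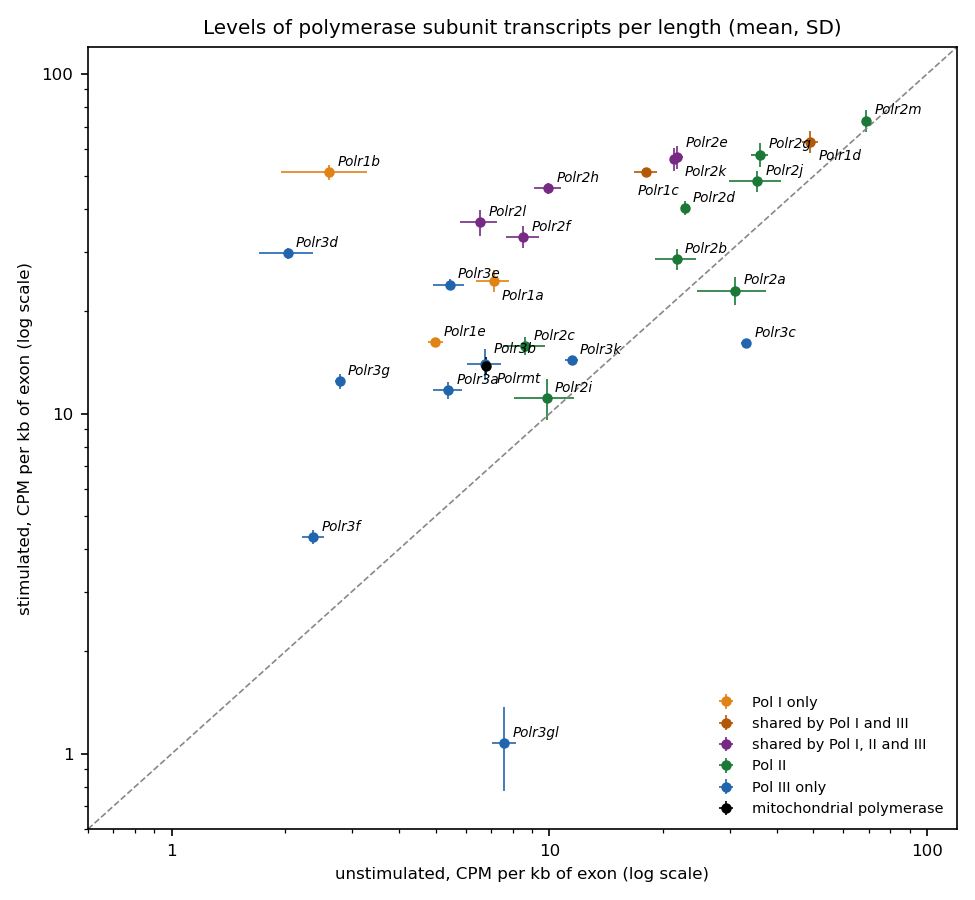
Mean level per kilobase of exon in unstimulated (x axis) and stimulated cells (y axis) for 28 polymerase genes. Polr2m, which is not a core subunit, is among them. Both axes are logarithmic, with SD bars and the line of equal levels. Polr1b and Polr3d lie farthest above the line, and Polr3gl and Polr3c below it.

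Subunits of Pol III alone showed the widest spread, 8 up and 2 down of 10, with the sum going from 297 ± 6.47 to 586 ± 14.03 CPM. Polr3d and Polr3e form a TFIIF-like pair that helps the enzyme open promoters and terminate. Polr3d (ENSMUSG00000000776, chromosome 14, 70438757 to 70443447, reverse strand) had 6.78, 4.899 and 5.69 CPM at rest and 87.05, 85.8 and 81.2 CPM after stimulation, a 14.6-fold rise (log2 change 3.87 ± 0.12 SE, adjusted p = 9.8e-09) and number 264 among all tested genes. Its partner Polr3e (ENSMUSG00000030880, chromosome 7, 120917744 to 120947432, forward strand) rose from 29.6, 27.8 and 24.5 CPM to 119, 126 and 118 CPM (log2 change 2.14 ± 0.084 SE, adjusted p = 3.7e-08). Neither gene had overlapping groups. Crcp, a Pol III subunit with no Polr3 symbol here, rose from 34 ± 0.706 to 49.96 ± 3.41 CPM (log2 change 0.56 ± 0.073 SE, adjusted p = 0.0001). The large catalytic subunits Polr3a and Polr3b rose 2.17-fold and 2.08-fold, Polr3a from 34.7, 29.4 and 30.3 CPM to 72.3, 67.7 and 64.9 CPM and Polr3b from 35.5 ± 3.696 to 73.9 ± 7.62 CPM (edgeR adjusted p = 2.1e-06 and 1.3e-05). Polr3k, which acts in RNA cleavage, rose by 0.33 (SE 0.067).

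The initiation subcomplex of Pol III, made of Polr3c, Polr3f and either Polr3g or Polr3gl, moved in both directions. Polr3g is known from dividing and undifferentiated cells and Polr3gl from most tissues. Polr3gl (ENSMUSG00000028104, chromosome 3, 96577872 to 96594181, reverse strand) stood at 11.6, 11.7 and 13.1 CPM in the unstimulated libraries and at 1.67, 1.26 and 2.21 CPM in the stimulated ones, a 7.07-fold fall (log2 change -2.82 ± 0.19 SE, adjusted p = 1.2e-06). Polr3g (ENSMUSG00000035834, chromosome 13, 81673843 to 81711013, reverse strand) went the other way, from 11.3, 10.8 and 10.8 CPM to 48.3, 51.96 and 47.2 CPM (log2 change 2.17 ± 0.078 SE, adjusted p = 2.4e-08). The log2 ratio of Polr3g to Polr3gl counts was -0.03, -0.12 and -0.28 in the resting libraries and 4.84, 5.34 and 4.41 in the stimulated ones. Counts of the pair were thus nearly equal at rest (ratio 0.904) and 29.1 to 1 after stimulation, a shift of 32.3-fold that no scaling between libraries can alter. The two-sided exact permutation test of the ratio gave p = 0.1 (0.1 adjusted over the 5 pairs of related genes tested), the smallest value that 3 against 3 libraries allow. Per length Polr3g was at 2.78 and 12.5 and Polr3gl at 7.6 and 1.07 CPM per kb.

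Polr3c fell too, from 109, 115 and 113 CPM to 55.5, 53.9 and 54.8 CPM with no overlap (log2 change -1.04 ± 0.061 SE, adjusted p = 4e-07). Polr3f rose from 18.3 ± 1.23 to 33.5 ± 1.54 CPM (log2 change 0.87 ± 0.083 SE, adjusted p = 1.1e-05). Per length Polr3c was the highest of the subunits found in Pol III alone at rest, 33.1 CPM per kb, and came to 16.2 after stimulation, under Polr3d and Polr3e. Polr3f stayed among the lowest with 2.37 and 4.35 CPM per kb. Polr3c and Polr3gl were the only polymerase subunits here that fell more than 2-fold.

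Polrmt, the single-subunit polymerase that transcribes mitochondrial DNA, rose from 31.6, 31.9 and 32.2 CPM to 60.6, 65.2 and 68.4 CPM, with all stimulated libraries above all resting ones (log2 change 1.02 ± 0.070 SE, adjusted p = 1.1e-06). Of 9 other mitochondrial transcription genes 3 rose (33.3%, against 38.4% of all tested genes), 2 fell and 4 (Tfam, Tfb1m, Mterf1a and Mterf4) were not called. Tefm, the elongation factor, rose from 5.31 ± 0.632 to 16.3 ± 0.889 CPM (log2 change 1.61 ± 0.12 SE, adjusted p = 2e-06). Tfb2m, which melts the promoter, rose from 9.66 ± 0.512 to 16.4 ± 0.443 CPM (log2 change 0.76 ± 0.092 SE, adjusted p = 5.3e-05). Mterf2 fell from 11.96 ± 1.68 to 5.04 ± 0.135 CPM (log2 change -1.25 ± 0.13 SE, adjusted p = 2.5e-05). Mterf1b fell by 0.42 (edgeR adjusted p = 0.0295), a call lost with no filter (adjusted p = 0.0648), with DESeq2 (adjusted p = 0.076), without unstimulated replicate 3 (adjusted p = 0.0837), without stimulated replicate 1 (adjusted p = 0.0859) or 2 (adjusted p = 0.0772) and without any 1 replicate number (adjusted p = 0.0801, 0.129 and 0.105, across alternatives 0.00845 to 0.129), and it is a near copy of Mterf1a.

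The initiation factors of Pol II rose in 11 of 12 tested cases (91.7%, against 38.4% of all tested genes). None fell, and the median change was 0.62. Within TFIIF, which escorts the polymerase to the promoter, Gtf2f2 rose from 19.6, 20.9 and 22.2 CPM to 83.8, 87.5 and 82.4 CPM (log2 change 2.02 ± 0.073 SE, adjusted p = 2.5e-08). Its partner Gtf2f1 rose from 89.4 ± 8.82 to 128 ± 2.17 CPM (log2 change 0.52 ± 0.081 SE, adjusted p = 0.0003). Per length the partners were at 14.2 (Gtf2f2) and 52.1 (Gtf2f1) CPM per kb at rest and at 57.6 and 74.7 after stimulation. In TFIIE, which recruits TFIIH, Gtf2e1 rose from 25.8, 20.8 and 23 CPM to 81.3, 82.4 and 76.6 CPM (log2 change 1.79 ± 0.089 SE, adjusted p = 1.5e-07). Gtf2e2 rose from 26.3 ± 0.363 to 48.05 ± 1.69 CPM (log2 change 0.87 ± 0.067 SE, adjusted p = 2.5e-06). In each of these pairs the subunit that was lower per length at rest rose more.

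All 5 TFIIH subunits with Gtf2h names rose, TFIIH being the helicase and kinase complex that opens promoter DNA and also serves DNA repair. Gtf2h2 had 15.3, 14.8 and 15.4 CPM at rest and 45.5, 49.6 and 47.1 CPM after stimulation (log2 change 1.65 ± 0.073 SE, adjusted p = 7.5e-08). Gtf2h4, Gtf2h1, Gtf2h3 and Gtf2h5 rose by 1.01, 0.62, 0.62 and 0.56 (SE 0.087, 0.079, 0.076 and 0.11). Of the 5 TFIIH genes with other names 4 rose and none fell, and Mnat1, which assembles the kinase, was not called (-0.16, SE 0.097). The helicase Ercc2 rose from 39.4 ± 3.19 to 87.8 ± 5.78 CPM (log2 change 1.16 ± 0.084 SE, adjusted p = 1.6e-06) and the kinase Cdk7 from 33.05 ± 1.63 to 59.3 ± 1.26 CPM (log2 change 0.84 ± 0.067 SE, adjusted p = 3.2e-06).

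Gtf2b, the single-chain TFIIB that bridges the TATA-binding protein and the polymerase, was the 1 tested Pol II factor not called, with 45.1, 45.5 and 50.9 CPM at rest and 49.8, 47.7 and 50.1 CPM after stimulation (log2 change 0.06 ± 0.073 SE, adjusted p = 0.454). Its groups overlapped, and its change was -0.08 with library size alone. TFIIA, which steadies that protein on DNA, rose slightly. Gtf2a2 went from 37.9 ± 2.49 to 48.4 ± 1.71 CPM (log2 change 0.35 ± 0.074 SE, adjusted p = 0.00193), and Gtf2a1 from 31.4 ± 2.498 to 36.2 ± 1.97 CPM (log2 change 0.2 ± 0.084 SE, adjusted p = 0.0499). The Gtf2a1 call lay at the threshold and was lost on leaving out any library but unstimulated replicate 3 (adjusted p = 0.126 and 0.148 without unstimulated replicates 1 and 2, and 0.146, 0.0779 and 0.0553 without stimulated replicates 1, 2 and 3). It was also lost with library size alone (change 0.06, adjusted p = 0.511, across alternatives 0.0154 to 0.598).

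The TFII-I family carries Gtf2 names but acts as sequence-specific and signal-responsive factors. Of its 3 genes, which are neighbours on chromosome 5, none rose. Gtf2i (ENSMUSG00000060261, chromosome 5, 134237834 to 134314760, reverse strand) fell from 313, 344 and 379 CPM to 181, 189 and 189 CPM, with no overlap (log2 change -0.89 ± 0.080 SE, adjusted p = 7e-06). Gtf2ird1 fell from 4.39, 6.76 and 8.61 CPM to 1.21, 1.02 and 1.86 CPM (log2 change -2.27 ± 0.31 SE, adjusted p = 0.00013). Gtf2ird2 was at 8.35 ± 1.32 and 6.69 ± 0.649 CPM (log2 change -0.32 ± 0.15 SE, adjusted p = 0.0799). It was called lower with library size alone (change -0.46, adjusted p = 0.0215), without unstimulated replicate 3 (change -0.42, adjusted p = 0.036) and without both libraries of replicate 3 (adjusted p = 0.0366, across alternatives 0.0189 to 0.582). Gtf2i had the highest mean CPM of all 75 members at rest, and its summed family level went from 360.3 ± 33.8 to 194 ± 5.46 CPM.

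Of the 7 Pol III factors 4 rose (57.1%, against 38.4% of all tested genes), none fell and 3 were not called. Calls in either direction thus took in 57.1%, under the 77.5% of all tested genes. TFIIIC recognises the promoter boxes inside transfer RNA genes. Its subunit Gtf3c4 rose from 30.2, 27.7 and 25.2 CPM to 88.7, 86.5 and 73.6 CPM (log2 change 1.58 ± 0.099 SE, adjusted p = 6.1e-07). Gtf3c5 rose from 20.6 ± 2.28 to 42.1 ± 2.64 CPM (log2 change 1.04 ± 0.098 SE, adjusted p = 1e-05) and Gtf3c6 from 11.9 ± 0.2901 to 21.5 ± 1.51 CPM (log2 change 0.85 ± 0.089 SE, adjusted p = 2e-05). Gtf3c2 rose by 0.47 (SE 0.11, edgeR adjusted p = 0.0034), a call lost on dropping both libraries of replicate 2 (adjusted p = 0.0672, across alternatives 9.6e-05 to 0.0672), and shares 38.9% of its exon bases with Gm29609. The largest subunit, Gtf3c1, was at 114, 112 and 98.1 CPM at rest and 115, 117 and 111 CPM after stimulation and was not called (0.09, SE 0.076). Gtf3c3 changed by 0.11 (SE 0.069), also not called, and both were below 0 with library size alone (-0.05 for Gtf3c1 and -0.03 for Gtf3c3). Gtf3a, the TFIIIA that brings Pol III to its ribosomal RNA gene, was not called (-0.04, SE 0.069, edgeR adjusted p = 0.61), and 59.1% of its exon bases overlap Mtif3 on the other strand. With library sizes that leave out the 20 most abundant genes it was called lower (adjusted p = 0.0409, across alternatives 0.0409 to 0.924).

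The list of 10 other genes of Pol III initiation and repression had 7 up, 2 down and Snapc2 not called. That is 70% up and 20% down, against 38.4% and 39.1% of all tested genes. Snapc4, of the complex that serves small nuclear RNA promoters, rose from 26.4 ± 1.18 to 128 ± 2.28 CPM (log2 change 2.28 ± 0.067 SE, adjusted p = 9.3e-09). Ssb, which binds new Pol III transcripts, rose from 164 ± 3.42 to 366 ± 6.103 CPM (log2 change 1.16 ± 0.058 SE, adjusted p = 1.6e-07). Maf1, the repressor of Pol III, fell from 142, 152 and 162 CPM to 35.6, 40.4 and 42.4 CPM (log2 change -1.94 ± 0.088 SE, adjusted p = 8.6e-08). Snapc5 fell from 14.1 ± 1.71 to 8.58 ± 0.6095 CPM (log2 change -0.71 ± 0.12 SE, adjusted p = 0.00053).

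Among the 4 TAFs of SL1, the factor that selects ribosomal RNA gene promoters for Pol I, 3 rose and 1 fell. Of all tested genes 38.4% rose and 39.1% fell. Taf1a rose from 7.48, 7.49 and 7.45 CPM to 25.3, 28.5 and 25.7 CPM (log2 change 1.82 ± 0.089 SE, adjusted p = 1.3e-07). Taf1c rose from 27.4 ± 1.43 to 65.1 ± 5.11 CPM (log2 change 1.25 ± 0.082 SE, adjusted p = 8.6e-07) and Taf1d from 68.04 ± 1.64 to 115 ± 7.36 CPM (log2 change 0.76 ± 0.070 SE, adjusted p = 8.4e-06). Taf1d is a host of small nucleolar RNAs. Taf1b, the TFIIB-like subunit, fell from 39.2 ± 1.26 to 31.9 ± 0.759 CPM (log2 change -0.3 ± 0.067 SE, adjusted p = 0.00292), a call lost on dropping both libraries of replicate 2 (adjusted p = 0.0717, across alternatives 0.00029 to 0.0717). Of the 6 other genes listed for Pol I initiation and the TATA-binding family, Ptrf had no match by symbol, 3 rose, 1 fell and Tbpl1 was not called. Ubtf, which coats ribosomal RNA genes, rose from 170.1 ± 28.7 to 539 ± 11.5 CPM (log2 change 1.66 ± 0.11 SE, adjusted p = 1.2e-06). Rrn3, which links Pol I to SL1, rose from 36.5 ± 2.61 to 121 ± 6.08 CPM (log2 change 1.73 ± 0.078 SE, adjusted p = 8.2e-08). Tbp, common to the initiation factors of all nuclear enzymes, rose from 36.5 ± 1.88 to 50.5 ± 1.57 CPM (log2 change 0.47 ± 0.069 SE, adjusted p = 0.00021). Ttf1, which stops Pol I, fell from 47.2 ± 5.04 to 29.7 ± 1.44 CPM (log2 change -0.67 ± 0.092 SE, adjusted p = 0.00013).

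The TAFs of TFIID, which reads Pol II core promoters, had 9 of 13 genes up, 3 down and 1 not called. That is 69.2% up and 23.1% down, against 38.4% and 39.1% of all tested genes. Their median log2 change was 0.47. Taf10, a histone-fold TAF that is also part of the SAGA coactivator, rose from 84.5, 81.2 and 88.6 CPM to 175, 190.1 and 164 CPM (log2 change 1.06 ± 0.076 SE, adjusted p = 1.6e-06), and 45.9% of its exon bases overlap Ilk on the other strand. Taf7 rose from 14.5 ± 1.15 to 27.6 ± 1.93 CPM (log2 change 0.93 ± 0.095 SE, adjusted p = 1.8e-05). Taf3, which binds methylated histone tails at active promoters, rose from 19.04 ± 0.466 to 31.7 ± 1.76 CPM (log2 change 0.74 ± 0.077 SE, adjusted p = 2.2e-05). Taf11, Taf13 and Taf2 rose by 0.59, 0.55 and 0.47 (SE 0.093, 0.076 and 0.10).

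For some TFIID genes single libraries or the scaling decided the call. Taf5, the core scaffold, rose by 0.23 (SE 0.071, edgeR adjusted p = 0.0151) and Taf12 by 0.25 (SE 0.088, edgeR adjusted p = 0.0272). With library size alone neither was called (adjusted p = 0.285 and 0.3), nor without both libraries of replicate 1 (adjusted p = 0.0639 and 0.0892) or 2 (adjusted p = 0.134 and 0.232). The Taf5 call was also lost without unstimulated replicate 2 (adjusted p = 0.0543, across alternatives 0.00922 to 0.352), and the Taf12 call without unstimulated replicate 1 (adjusted p = 0.073) or 2 (adjusted p = 0.0948) or stimulated replicate 2 (adjusted p = 0.0888, across alternatives 0.00522 to 0.358). Taf9 was low, 0.764, 1.201 and 0.786 CPM at rest and 1.49, 1.65 and 2.83 CPM after stimulation (log2 change 1.11 ± 0.33 SE, adjusted p = 0.0117). It shares 73.8% of its exon bases with Ak6, so its count is uncertain, and its call was lost without stimulated replicate 3 (change 0.78, adjusted p = 0.0504) and without both libraries of replicate 3 (change 0.68, adjusted p = 0.108, across alternatives 0.00406 to 0.108).

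Taf1, the largest TAF, had 115, 125 and 104 CPM at rest and 100.1, 102 and 90.8 CPM after stimulation, a narrow separation (log2 change -0.23 ± 0.084 SE, adjusted p = 0.0306). Leaving out any library but unstimulated replicate 3 ended its call (adjusted p = 0.0519 and 0.121 without unstimulated replicates 1 and 2, and 0.0546, 0.0527 and 0.123 without stimulated replicates 1, 2 and 3). It was also lost with RLE (adjusted p = 0.0507), with DESeq2 (adjusted p = 0.0758) and without both libraries of replicate 2 (adjusted p = 0.179, across alternatives 0.00168 to 0.179). Taf8, which brings histone-fold TAFs into the complex, fell from 54.7, 58.3 and 64.7 CPM to 41.9, 39.7 and 41.04 CPM (log2 change -0.53 ± 0.079 SE, adjusted p = 0.0002). Taf6 fell from 30.5 ± 1.44 to 25.5 ± 0.215 CPM (log2 change -0.26 ± 0.073 SE, adjusted p = 0.00951), a call lost on dropping both libraries of replicate 1 (adjusted p = 0.0733) or 2 (adjusted p = 0.086, across alternatives 0.00071 to 0.086), and 26.5% of its exon bases overlap Ap4m1 on the other strand. Taf4 was not called (0.12, SE 0.070; -0.02 with library size alone).

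Some TAFs have paralogs that stand in for them in TFIID or in SAGA. Taf4b, the paralog of Taf4 known from germ cells and some lymphocytes (ENSMUSG00000054321), rose from 11.7, 7.93 and 7.79 CPM to 63.5, 62.2 and 59.7 CPM with no overlap (log2 change 2.76 ± 0.15 SE, adjusted p = 3.6e-07). The ratio of Taf4 to Taf4b counts was 7.85 at rest and 1.24 after stimulation (difference of log2 ratios -2.67). Taf5l, the SAGA counterpart of Taf5, rose from 66.2, 58.7 and 56.3 CPM to 171, 157 and 148 CPM (log2 change 1.39 ± 0.088 SE, adjusted p = 6.5e-07). The ratio of Taf5 to Taf5l went from 0.351 to 0.157 (difference of log2 ratios -1.16). Taf6l, the SAGA counterpart of Taf6, fell from 42.2 ± 2.55 to 30.5 ± 1.57 CPM (log2 change -0.47 ± 0.078 SE, adjusted p = 0.00044). The ratio of Taf6 to Taf6l was 0.722 and 0.837 (difference 0.21). Taf9b fell from 15.6 ± 1.44 to 9.85 ± 0.621 CPM (log2 change -0.66 ± 0.11 SE, adjusted p = 0.00039), and its ratio to Taf9 is not described further because of the shared Taf9 exons. In each of the 5 pairs the exact permutation test gave its smallest possible p of 0.1 (adjusted p = 0.1). Taf15, an RNA-binding protein of another family that associates with TFIID, rose from 72.7 ± 3.71 to 109.7 ± 2.79 CPM (log2 change 0.59 ± 0.066 SE, adjusted p = 3.1e-05).

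**Figure D4:**
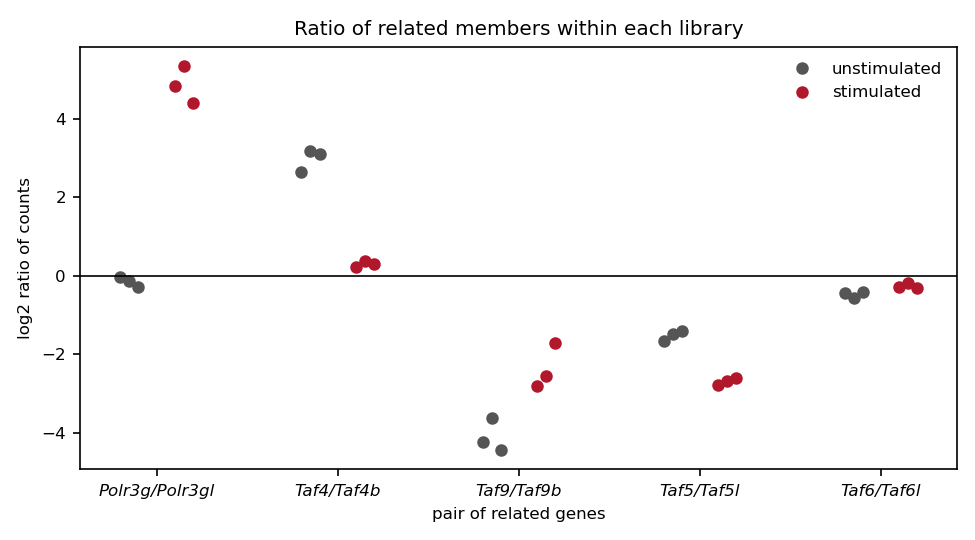
Log2 ratio of counts of related genes (y axis) within each library for 5 pairs (x axis), unstimulated in grey and stimulated in red. The Polr3g to Polr3gl ratio lies near 0 at rest and above 4 after stimulation, and the Taf4 to Taf4b ratio falls from 2.97 to 0.31 on average.

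Genes that assemble polymerases or carry Pol II through elongation were followed as lists. Over all 102 matched machinery genes outside the naming rule, 101 were tested, 63 rose, 17 fell and 21 were not called, where 38.4% of all tested genes rose and 39.1% fell. Calls in either direction took in 80 of the 101, a share close to the 77.5% of all tested genes. Of 9 tested assembly genes 6 rose, 2 fell and Rpap2 was not called. The chaperone ATPase Ruvbl1 rose from 36.1 ± 1.14 to 184 ± 2.599 CPM (log2 change 2.35 ± 0.064 SE, adjusted p = 7.3e-09). The GTPase Gpn1, which brings Pol II into the nucleus, rose from 15.97 ± 0.303 to 74.5 ± 2.65 CPM (log2 change 2.22 ± 0.068 SE, adjusted p = 1.1e-08). Pih1d1, of a chaperone complex, fell from 55.4 ± 5.89 to 35.9 ± 1.96 CPM (log2 change -0.63 ± 0.091 SE, adjusted p = 0.00019). Gpn3 fell by 0.33 (edgeR adjusted p = 0.016), a call lost without stimulated replicate 1 (adjusted p = 0.0607) and without both libraries of replicate 2 (adjusted p = 0.105, across alternatives 0.00145 to 0.105).

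Of 26 tested pausing and elongation genes 16 rose (61.5%), 4 fell (15.4%) and 6 were not called. Among all tested genes 38.4% rose and 39.1% fell. Ell2, of the super elongation complex, rose from 18.97 ± 1.25 to 109 ± 11.98 CPM (log2 change 2.52 ± 0.10 SE, adjusted p = 3.9e-08). Leo1, of the PAF complex, rose from 20.1 ± 0.851 to 56.9 ± 1.203 CPM (log2 change 1.5 ± 0.069 SE, adjusted p = 9.4e-08). Supt4a, the small subunit of the pausing and elongation factor DSIF, fell from 119.7, 121 and 132 CPM to 25.1, 27.6 and 31.4 CPM (log2 change -2.15 ± 0.094 SE, adjusted p = 7e-08). Nelfb, of the pausing factor NELF, fell from 122 ± 1.79 to 77 ± 2.51 CPM (log2 change -0.67 ± 0.061 SE, adjusted p = 8.3e-06). Mediator, which links activators to Pol II, had 21 up (63.6%), 6 down (18.2%) and 6 not called of 33. Its kinases went apart: Cdk8 rose from 31.9, 32.8 and 32.2 CPM to 94.8, 103 and 94.1 CPM (log2 change 1.59 ± 0.066 SE, adjusted p = 5.2e-08). Its paralog Cdk19 fell from 162, 173 and 148 CPM to 14.9, 10.4 and 12.2 CPM (log2 change -3.69 ± 0.13 SE, adjusted p = 2.6e-08). Med29 rose from 7.72 ± 0.464 to 23.8 ± 1.77 CPM (log2 change 1.62 ± 0.099 SE, adjusted p = 5.2e-07), and Med12, of the kinase module, fell from 176 ± 26.1 to 103 ± 7.19 CPM (log2 change -0.77 ± 0.11 SE, adjusted p = 0.00018).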

How the data were processed

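RNA was sequenced from 6 libraries, and the authors deposited 1 table of raw counts of reads per Ensembl gene. STAR 2.5.2a, HTSeq and DESeq2, with the build GRCm38, are named in the submitters' processing notes, with no role for each. The annotation release, the strand setting and the read filters are not stated, so reads of overlapping genes cannot be told apart. Names, coordinates and exon lengths came from GENCODE M21 (48058 identifiers matched, 382 did not). An exon length is that of all annotated exons of a gene merged over its transcripts.

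Counts were fitted with edgeR 4.0.16 in R 4.3.3 (TMM, filterByExpr, robust quasi-likelihood test on group, Benjamini-Hochberg adjustment over 13314 genes, which held 99.9% of the counts). The SE came from the log2 change and the F statistic. Replicates of a group differed by more than counting noise (dispersion index 9.48 to 38.3, where such noise alone gives about 1). Ratios of related genes had 0.5 counts added. Tested on simulated data for stimulated against unstimulated libraries (13314 genes), the fit recovered 64% of 100 genes changed 1.5-fold and 90% of 100 changed 2-fold, with 5 false calls. Only these genes changed there, as many up as down and all at 1 CPM or more, while 77.5% of genes were called in the data. The simulated spread followed abundance and not the single gene, with no replicate effect. The simulation therefore cannot give the error rate of the real calls. The alternatives were RLE scaling, library size alone, library sizes without the 20 most abundant genes, no filter, DESeq2 1.42.0, a minimum of 1 CPM in at least 3 libraries, voom in limma 3.58.1, a replicate block, an adjusted p of 0.01 and leaving out libraries.

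The members, lists and classes were chosen with earlier results of these data known. Genes named with their values were, for each class, the 3 with the smallest p in each direction, a fixed set of core subunits and every member of classes of fewer than 6. Members not called were named too, and for the other lists the 2 genes with the smallest p in each direction. Any further gene was named after its values were seen. The values of 1 member are not reported here, while the counts and sums include it.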

Additional observations from a re-analysis of the deposited data

How the results depend on the processing

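Of 1241 values of single members under the alternatives, 1181 kept their direction and their side of the threshold, 45 lost the call, 5 gained it and 10 changed sign. These last were members not called to begin with. With library size alone the log2 changes became -0.078 for Gtf2b, -0.060 for Polr2m, -0.054 for Gtf3c1, -0.024 for Taf4 and -0.028 for Gtf3c3. With library sizes without the 20 most abundant genes they became -0.090, -0.072, -0.066, -0.036 and -0.040, in the same order. These scalings moved the median of all genes by -0.14 and -0.15. Across the fits that left out libraries, 48 to 54 members were called higher and 7 to 12 lower. The 7 came without both libraries of replicate 2 (the cause was not tested; without both of replicate 1 or of replicate 3 there were 10 and 12), and unstimulated replicate 3 left out alone also gave 12. The replicate block left 54 members higher and 11 lower, the same genes. Same-numbered libraries deviated together with correlations of 0.361, 0.0845 and 0.38, and each library correlated best with its own number. Libraries of different numbers had correlations from -0.363 to -0.0117. Deviations from a group mean cancel out within the group, so these negative values follow in part from the positive ones. The labels do not say whether the numbers pair libraries. The main fit and the permutation tests did not use them as pairs, and any pairing is thus left out of their p-values. Depth was nearly equal between libraries, and it limits Taf9, Gtf2ird1 and Polr3gl most, the called members with the fewest counts.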
